A study of Homo sapiens with 24 samples.

Results

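Polysomal RNA of untreated A2058 cells was compared between cells transfected with siRNA against LSM14A (siLSM14A NT) and cells transfected with a control siRNA (siCTRL NT). A2058 is an established human melanoma line. All labels and the description of the polysome work name it, while a legend of the study names another melanoma line, A375, for a comparison with and without hydroxyurea (HU). The comparison used 6 of the 24 libraries of the series, 3 per group, each from its own labelled replicate, and no other agent than the siRNA separated the groups. The remaining 18 libraries were total RNA with the same culture labels, and polysomal and total RNA of cells with the same siRNAs under HU, an inhibitor of ribonucleotide reductase. Polysomal RNA was the poly(A) RNA of the heaviest fractions of a sucrose gradient, and all cells had received cycloheximide shortly before lysis. The libraries carry only this cell line and 1 siLSM14A label, so effects of the line or of the siRNA cannot be told apart from those of LSM14A. Protein-coding genes that passed the filter on low counts were tested, 12342 of 19086.

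LSM14A is an RNA-binding protein of the Scd6 family with an LSm domain, an FDF motif and RGG motifs. It is found in P-bodies, cytoplasmic granules that hold repressed mRNAs together with the decapping machinery, where it binds the helicase DDX6 and the 4E-T protein (EIF4ENIF1). An mRNA bound by many ribosomes sediments with heavy polysomes, so its level there depends on how much of the mRNA the cell holds and on how heavily it is translated. In such bulk samples fewer cells with a transcript and less transcript per cell cannot be told apart, and values in CPM, counts scaled to library size with TMM factors, do not show a change in the total amount of polysomal RNA.

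The 6 libraries held 28776634 to 44897501 counts. A library of each group stood apart from the other 4. In siCTRL replicate 3 and siLSM14A replicate 1, genes of low exon GC content were high and genes of high GC content were low. With genes in 4 equal groups by GC content, the mean log2 deviation of the lowest group was 0.37 and 0.31 in these, and -0.28 to -0.11 in the other 4. Spearman's rho between a gene's deviation and its exon GC content was -0.67 and -0.73 against 0.34 to 0.53, and the first principal component, with 48.4% of the variance, separated the same libraries. With 1 such library on each side, the log2 change between groups had a rho with GC content of -0.04. Without siCTRL replicate 3 this rho was -0.49, and without siLSM14A replicate 1 it was 0.36. The typical spread between replicates was a biological coefficient of variation of 21%, against 7.2% in total RNA with the same labels and 17.3% in polysomal RNA under HU. The median standard error of a log2 change was correspondingly 0.21, 0.078 and 0.18.

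**Figure D1:**
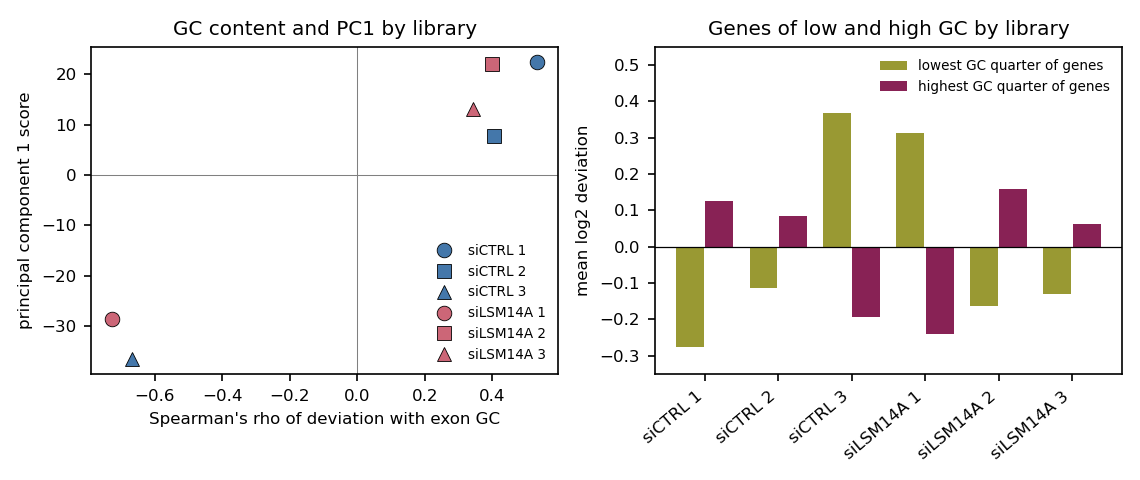
Left, for each of the 6 polysomal libraries, Spearman's rho between the log2 deviation of genes and their exon GC content (x axis) and the score on the first principal component (y axis). Right, mean log2 deviation of the lowest and highest of 4 equal groups of genes by GC content in each library. siCTRL 3 and siLSM14A 1 lie together at the lower left, with rho of -0.67 and -0.73.

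LSM14A itself (chr19:34663409-34720193, plus strand, hg19) was measured first, as the check of the labels. Its polysomal level was 30.9, 39.8 and 49.8 CPM in siCTRL replicates 1 to 3 and 2.46, 1.70 and 1.60 CPM in siLSM14A replicates 1 to 3. The groups lay far apart, at 40.1 ± 9.50 CPM and 1.92 ± 0.475 CPM (SD, n = 3 each), so that 4.8% of the control level was left. On the log2 scale the change was -4.38, with a standard error of 0.27 and, by edgeR's quasi-likelihood test, an adjusted p of 7.44e-05, and it stayed between -4.61 and -4.20 when each culture was left out in turn.

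Few other genes passed the test. At an adjusted p under 0.05, 2 of 12342 genes were called, both lower (0.0162% of genes tested), LSM14A among them, and 0 were higher (0%). At an unadjusted p under 0.05, 168 genes were lower (1.36%) and 74 higher (0.6%), 242 together (1.96%). This is a smaller share than the 0.05 that such a threshold passes on average with no difference between groups. By DESeq2, 8 genes were called, all lower, and by limma's voom with sample quality weights 10, all lower. DESeq2 added BRI3BP, TAP1, PACC1, EIF3F, GTF3A and GCNT2. The weighted fit gave siCTRL replicate 3 a weight of 0.41 and siLSM14A replicate 1 a weight of 0.56, and added BRI3BP, TAP1, PACC1, EIF3F, GTF3A, POLR2C, COQ10A and PROB1.

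**Figure D2:**
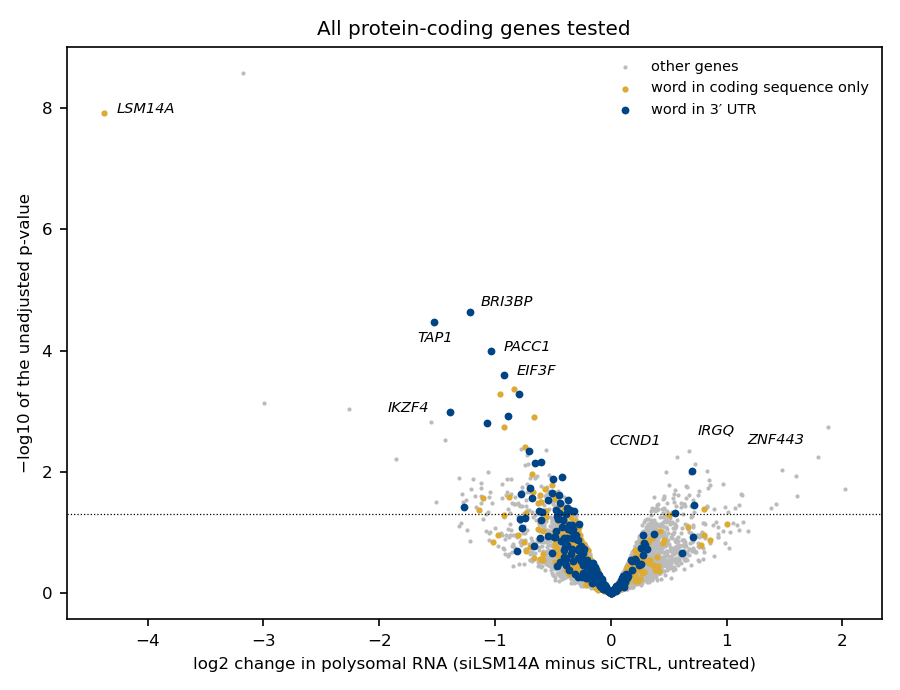
Log2 change in polysomal RNA (x axis) and -log10 of the unadjusted p-value (y axis) for each of 12342 genes. The dotted line marks p of 0.05, and colours mark genes whose canonical transcript holds the 7-base word described in the text. LSM14A lies at -4.38, and most of the coloured genes above the line lie on the lower side.

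The 10 lower genes that the naming rule gave held 1 word of 7 bases in common, and their sequences are shown for that reason. The rule took genes with non-overlapping groups, a mean count of at least 50 and the smallest p. The word had been noticed in an earlier look at total RNA of these cultures, and it also occurs in the coding sequence of LSM14A, at chr19:34712414-34712420. Windows of 23 bases around it are given for 9 of the 10 genes, 5′ to 3′ on the transcribed strand, read from hg19, with the word in capitals. The LSM14A window runs across an exon junction. The first 6 windows below it are in 3′ UTRs and the others in coding sequence.
LSM14A: caatagagAACGGAGaccaacct
BRI3BP (chr12:125510024-125510046, plus strand): aaaacgaaAACGGAGgaaaaaaa
PACC1 (chr1:212538477-212538499, minus strand): actttgtaAACGGAGctatcaac
EIF3F (chr11:8017685-8017707, plus strand): ctctaataAACGGAGcctacctt
POLR2C (chr16:57505048-57505070, plus strand): tcagcaaaAACGGAGattcaggc
IKZF4 (chr12:56432134-56432156, plus strand): atttgtgtAACGGAGatatacta
COQ10A (chr12:56664652-56664674, plus strand): tgaacggaAACGGAGttgtcttt
GTF3A (chr13:28009581-28009603, plus strand): tcgtgaaaAACGGAGtttggcct
GTF3A (chr13:28009658-28009680, plus strand): tgtgtcaaAACGGAGagtcaccc
GCNT2 (chr6:10626674-10626696, plus strand): tctatggaAACGGAGacttaaag
ISG20L2 (chr1:156696812-156696834, minus strand): tcaactacAACGGAGatgtgctt
ISG20L2 (chr1:156697324-156697346, minus strand): gctcttagAACGGAGaggctttc
The unbroken run shared with LSM14A around the word was longest at the second ISG20L2 site, with 10 bases, and 9 bases in GCNT2. It was the word alone, 7 bases, in BRI3BP, PACC1, EIF3F, COQ10A and the first GTF3A window, and 8 bases at the remaining sites.

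EIF3F, POLR2C and GTF3A act in making RNA or protein. EIF3F, a subunit of the initiation factor eIF3, was at 228, 227 and 216 CPM in siCTRL replicates 1 to 3 and at 94.2, 139 and 122 CPM in siLSM14A replicates 1 to 3. All 3 siLSM14A libraries were below all siCTRL libraries, with a log2 change of -0.92 (standard error 0.17, adjusted p by edgeR 0.522). POLR2C, which encodes the RPB3 subunit of RNA polymerase II, was at 126, 125 and 95.7 CPM against 63.7, 66.3 and 69.3 CPM. Its log2 change was -0.80 (standard error 0.16), with siCTRL replicate 3 the lowest of the controls. GTF3A, the factor TFIIIA that RNA polymerase III needs for the 5S rRNA genes, was at 55.8, 56.0 and 60.1 CPM against 28.6, 36.6 and 31.1 CPM, a log2 change of -0.84 (standard error 0.17). EIF3F has processed pseudogene copies, and how the counting treated reads that fit several copies is not given in the sources used here.

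The other lower genes belonged to varied pathways. TAP1 is a subunit of the transporter that carries peptides into the endoplasmic reticulum for MHC class I. Its level was 61.1, 65.8 and 42.9 CPM in siCTRL replicates 1 to 3 and 15.9, 19.96 and 23.3 CPM in siLSM14A replicates 1 to 3, a 2.87-fold higher mean in the controls. The log2 change of TAP1 was -1.52 (standard error 0.22, adjusted p by edgeR 0.102), and it passed the threshold without siCTRL replicate 3 (-1.69, adjusted p by edgeR 0.0234). BRI3BP, the BRI3-binding protein, was at 66.0, 56.0 and 54.4 CPM against 24.3, 23.5 and 27.96 CPM, a log2 change of -1.22 (standard error 0.17, adjusted p by edgeR 0.0951). PACC1, a proton-activated chloride channel, was at 27.5, 27.1 and 25.2 CPM against 12.4, 12.5 and 14.1 CPM. Its log2 change was -1.03 (standard error 0.17, adjusted p by edgeR 0.249). GCNT2, a glycosyltransferase that branches the poly-N-acetyllactosamine chains of the I antigen, was at 45.1, 44.7 and 57.6 CPM against 27.6, 20.5 and 27.98 CPM, a log2 change of -0.95 (standard error 0.19). COQ10A, a relative of a yeast coenzyme Q-binding protein, went with 20.2, 19.3 and 16.1 CPM against 9.94, 11.8 and 8.40 CPM, a log2 change of -0.89 (standard error 0.20). ISG20L2, a nucleolar exoribonuclease of ribosomal RNA processing, was at 135, 128 and 106 CPM against 78.8, 74.5 and 78.8 CPM, a log2 change of -0.67 (standard error 0.15). IKZF4, an Ikaros family transcription factor, was the least abundant, at 2.29, 2.91 and 2.86 CPM against 1.38, 0.692 and 0.969 CPM. Its log2 change was -1.39 (standard error 0.31), on a mean of 68 counts per library. The groups of all 10 genes did not overlap, which the rule required, and 3.6% of all genes had non-overlapping groups with siLSM14A lower.

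**Figure D3:**
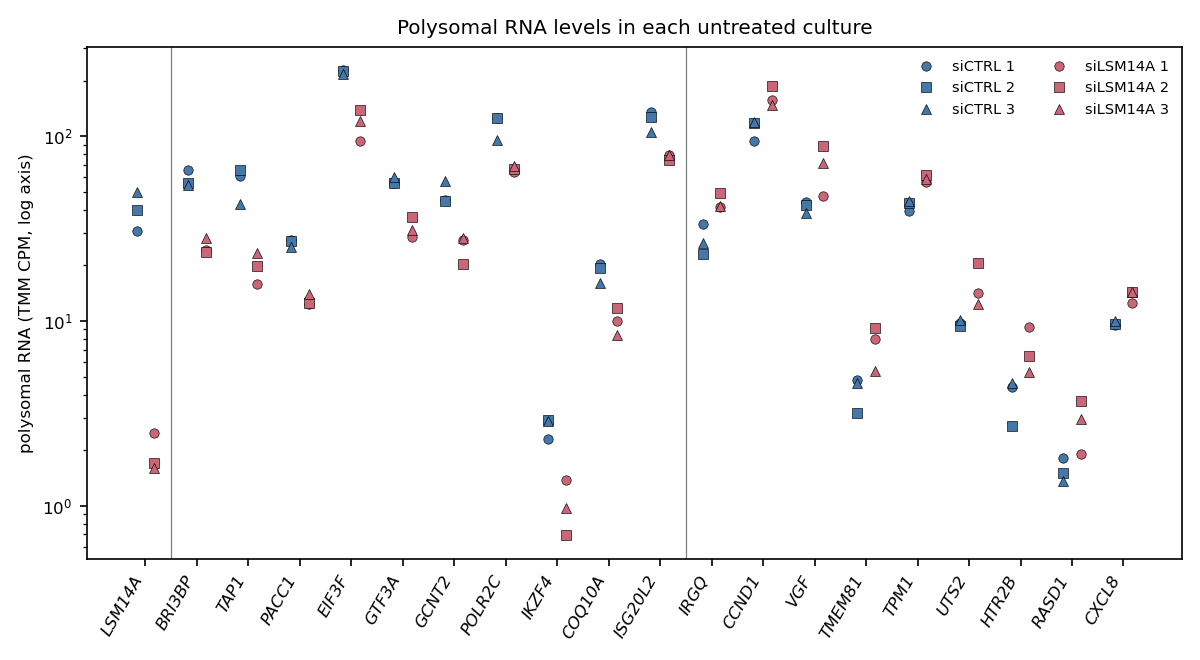
Polysomal RNA in TMM-normalised CPM (log axis) of LSM14A, the 10 lower and 9 higher named genes in each of the 6 untreated cultures. Blue points are siCTRL and red points siLSM14A, with the marker giving the replicate number, and for these genes the colours do not overlap.

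The 10 higher genes named by the same rule had smaller differences. None of them had an edgeR adjusted p under 1 here, and 2.67% of all genes had non-overlapping groups with siLSM14A higher. CCND1, the cyclin D1 partner of CDK4 and CDK6, was the most abundant, at 94.3, 117 and 120.0 CPM in siCTRL replicates 1 to 3 and 157, 187 and 148 CPM in siLSM14A replicates 1 to 3. The log2 change of CCND1 was 0.57 (standard error 0.16). TPM1, an actin-binding tropomyosin, was at 39.2, 43.3 and 44.4 CPM against 56.8, 61.7 and 58.4 CPM, a log2 change of 0.48 (standard error 0.15). IRGQ, of the immunity-related GTPase family, was at 33.3, 22.9 and 26.5 CPM against 41.4, 49.1 and 42.0 CPM, a log2 change of 0.68 (standard error 0.19).

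Among the other higher genes, VGF, a neuropeptide precursor, was at 43.8, 42.5 and 38.6 CPM against 47.6, 88.2 and 71.5 CPM, so that siLSM14A replicate 1 lay close to the controls (log2 change 0.73, standard error 0.22). The chemokine CXCL8 was at 9.49, 9.63 and 10.02 CPM against 12.5, 14.4 and 14.4 CPM (log2 change 0.50, standard error 0.18). UTS2, which encodes urotensin II, was at 9.80, 9.45 and 10.2 CPM against 14.3, 20.7 and 12.4 CPM (log2 change 0.69, standard error 0.22). The serotonin receptor HTR2B had a log2 change of 0.84 (standard error 0.28), the small GTPase RASD1 one of 0.86 (0.30) and the transmembrane protein TMEM81 one of 0.83 (0.26). RASD1 was at 1.91 CPM in siLSM14A replicate 1 and 1.81 CPM in siCTRL replicate 1, the narrowest gap in CPM among these genes.

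The word was then counted over all tested genes, the named ones included. Of 260 tested genes with it in the 3′ UTR, 30 were lower at an unadjusted p under 0.05 (11.5%) and 3 were higher (1.15%), beside 1.36% and 0.6% of all genes tested. Their median log2 change was -0.13, and it was -0.16 to -0.10 when each culture was left out in turn, against -0.0058 for all genes. Of 704 genes with the word in the coding sequence only, LSM14A left out, 23 were lower (3.27%) and 1 was higher, with a median of -0.09. Of 11183 genes with it in neither, 111 were lower (0.993%) and 67 higher. The 260 genes hold 7 of the 10 lower named genes and the 704 hold the other 3. The 10 lower and 10 higher named genes were then left out. Of 252 remaining genes with the word in the 3′ UTR, 23 were lower (9.13%) and 2 higher (0.794%), with a median of -0.12. Beside these, 20 of 701 (2.85%) with it in the coding sequence only and 111 of 11174 (0.993%) with it in neither were lower. Genes named for other reasons stayed in, ITGA9 and PPM1E among the lower ones. Groups did not overlap, with siLSM14A lower, in 44 of the 260 genes (16.9%), 50 of the 704 (7.1%) and 342 of the 11183 (3.06%). The genes with the word in the 3′ UTR had longer 3′ UTRs, with a median of 3223 bases against 1326 bases in genes without it, and the part of this length in their values was not tested. After the correction for GC content, the 3 medians were -0.12, -0.08 and 0.0022. The word was found in the 3′ UTR of 2.03% of 18204 protein-coding genes with a 3′ UTR of at least 50 bases, searched on the transcribed strand only. This is a description of genes that hold these letters. It was not tested as a site, since the word came from the same cultures, and the sequences of the siRNAs are not given in the sources used here.

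Further genes with the word in the 3′ UTR ranked below the named ones. GPR153, an orphan receptor, had a log2 change of -0.71 (standard error 0.20), and KREMEN1, a receptor of the Wnt inhibitor DKK1, one of -0.65 (0.20). BCL7B had a log2 change of -0.61 (0.18) and its paralogue BCL7A of -0.44 (0.18), both subunits of the BAF chromatin remodelling complex. CYCS, the cytochrome c of the respiratory chain, had a log2 change of -0.35 (0.15). These were lower at an unadjusted p under 0.05, and for GPR153, KREMEN1 and BCL7B this held with any 1 culture left out. PPM1E, a serine/threonine phosphatase with the word, rested more on a single culture, with 0.173 CPM in siLSM14A replicate 2 beside 1.51 and 1.28 CPM in replicates 1 and 3 and 1.83 to 2.996 CPM in siCTRL. Other genes with the word were higher at that threshold, among them ZNF652 (0.72, standard error 0.295) and DTWD1 (0.55, 0.245), with overlapping groups. Of 6 tested genes with the word 2 or more times in the 3′ UTR, DTWD1 among them, 0 were lower and 1 was higher. Their median was -0.04.

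To ask how far the polysomal differences followed the mRNA level, total RNA with the same culture labels was set beside them. Whether a label stands for the same culture in both fractions is not settled by the data. Deviations from the group mean over 12235 genes correlated between the fractions at 0.12, 0.22 and 0.08 for siCTRL replicates 1 to 3, but at -0.39, 0.15 and -0.28 for siLSM14A, where polysomal replicate 1 went best with total replicate 3 (0.48). Total RNA called 71 genes at an adjusted p under 0.05, 49 lower (0.391%) and 22 higher (0.175%), and at an unadjusted p under 0.05 it had 5.13% of genes lower and 5.62% higher. This count was 28 without siCTRL replicate 3, 39 without siCTRL replicate 2, 39 without siLSM14A replicate 2 and 40 without siLSM14A replicate 1. The lower named genes had log2 changes in total RNA of -1.43 (TAP1), -1.09 (BRI3BP), -1.02 (EIF3F), -0.98 (PACC1), -0.97 (GTF3A), -0.96 (IKZF4), -0.82 (COQ10A), -0.77 (POLR2C), -0.74 (GCNT2) and -0.48 (ISG20L2), each at an adjusted p under 0.05. In total RNA, TAP1 was at 31.8 to 34.5 CPM in siCTRL and 11.3 to 13.7 CPM in siLSM14A, a far tighter spread than in polysomes. The lower genes were then followed in polysomes for 48 of the 49, LSM14A itself among them, and the other is not reported here. The median log2 change of the 48 was -0.48 in each fraction. In polysomes 32 of the 48 were lower at an unadjusted p under 0.05, beside 1.36% of all genes tested there. Over the 22 higher genes the medians were 0.41 in total and 0.36 in polysomal RNA. Of these, 8 were higher in polysomes by that measure, beside 0.6% of all genes. CCND1 and TPM1 were the higher named genes called in total RNA, with log2 changes of 0.59 and 0.41. Among the genes of smallest p higher in total RNA were also AMMECR1 (0.74 in total and 0.63 in polysomal RNA), CCDC117 (0.59 and 0.44) and DCBLD1 (0.57 and 0.38). Both fractions carry the same culture labels, so these values are not taken as independent.

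The difference between the polysomal and the total RNA change, that is the change in translation efficiency, was tested directly as an interaction. By edgeR 0 of 12757 genes passed at an adjusted p under 0.05, and 44 were higher (0.345%) and 67 lower (0.525%) at an unadjusted p under 0.05. By DESeq2 0 genes passed as well, with 100 at an unadjusted p under 0.05. For LSM14A itself the log2 change was -3.49 (standard error 0.075) in total RNA, beside -4.38 in polysomal RNA. The difference for LSM14A was -0.89 (standard error 0.26, unadjusted p by edgeR 0.00501), and it did not pass after adjustment. For the 10 lower genes the difference ranged from -0.43 (IKZF4, standard error 0.30) to 0.13 (GTF3A, 0.15). For TAP1 it was -0.09 (standard error 0.25) and for BRI3BP -0.13 (0.15). Among the higher genes, TMEM81 had a difference of 0.70 (standard error 0.30) and IRGQ one of 0.45 (0.19), each with an adjusted p of 1. TMEM81 was at 2.63 to 2.90 CPM in siCTRL and 2.88 to 3.23 CPM in siLSM14A total RNA, so that the groups there overlapped. The median standard error of the difference over genes was 0.23, which limits what could be called.

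The same siRNA pair in HU-treated cultures shares no library with the untreated ones. There 8 of 12256 genes were called at an adjusted p under 0.05, all lower in this fit (0.0653%), among them LSM14A, TAP1, EIF3F, GTF3A, POLR2C, COQ10A and BRI3BP. By DESeq2 22 genes were called, not all of them lower. The count by edgeR was 2 without siCTRL HU replicate 2, 3 without siLSM14A HU replicate 1, 4 without siCTRL HU replicate 1 and 5 without siLSM14A HU replicate 3. All 10 lower named genes were lower under HU, with a median log2 change of -1.06, and 9 of them were lower at an unadjusted p under 0.05, against 1.7% of all genes. TAP1 was at 53.2 to 61.1 CPM with siCTRL and 17.8 to 25.5 CPM with siLSM14A (log2 change -1.52, standard error 0.17). EIF3F was at 221 to 268 CPM and 96.4 to 111 CPM (-1.19, standard error 0.14). IKZF4 was the exception among the 10, at 1.29 to 3.83 CPM and 1.17 to 1.69 CPM, with a log2 change of -0.53 (standard error 0.39).

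Of the 10 higher named genes, 9 were higher under HU, 3 of them at an unadjusted p under 0.05, against 3.29% of all genes. CCND1 had a log2 change of 0.74 (standard error 0.18), HTR2B of 0.93 (0.24) and TPM1 of 0.33 (0.14). TMEM81 was lower, at -0.38 (standard error 0.24), and IRGQ was at 0.01 (0.21). Over all 163 genes lower at an unadjusted p under 0.05 in untreated cells and tested under HU, 121 were lower there (74.2%), against 48.7% of all genes, and 35 at an unadjusted p under 0.05. Over 70 higher genes, 49 were higher (70%), against 51.3% of all genes. Of the genes with the word in the 3′ UTR, 29 of 260 were lower under HU at an unadjusted p under 0.05 (11.2%), against 1.7% of all genes. With the 10 lower and 10 higher named genes left out, 23 of 252 were (9.13%). The difference of the siRNA effect between NT and HU passed at an adjusted p under 0.05 by edgeR for 0 of 12515 genes, with 44 (0.352%) and 90 (0.719%) at an unadjusted p under 0.05 in the higher and lower direction, and for 0 genes by DESeq2, with 162 unadjusted. Its median standard error was 0.28, so an effect of equal size in both treatments was not shown.

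**Figure D4:**
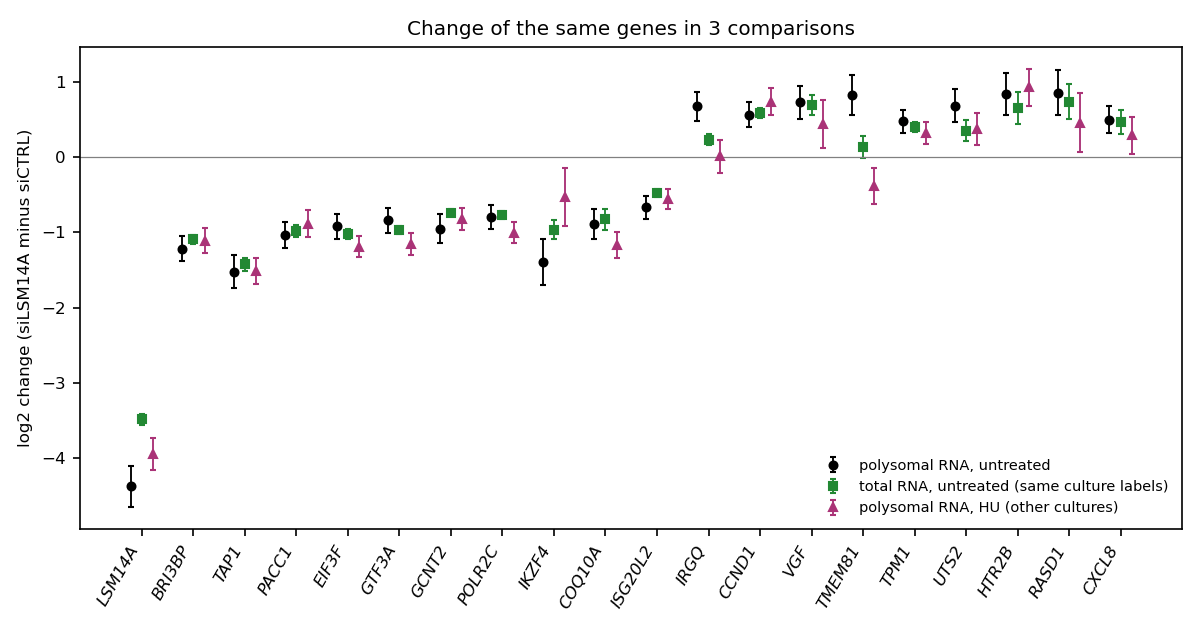
Log2 change of LSM14A and the named genes, with standard errors as bars, in polysomal RNA of untreated cells (black), total RNA with the same culture labels (green) and polysomal RNA of HU-treated cultures (purple). The lower genes lie below 0 in the 3 comparisons, and TMEM81 lies above 0 in untreated polysomal RNA and at -0.38 under HU.

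Each difference was then followed as single cultures were left out. Of the 168 lower genes, 145 had non-overlapping groups, against 3.6% of all genes with siLSM14A lower. Of the same 168, 32 kept an unadjusted p under 0.05 in each of the 6 omissions. Of the 74 higher genes, 61 had non-overlapping groups, against 2.67% of all genes, and 10 kept it. Both sets were chosen by p from these same libraries, so non-overlapping groups largely follow from that choice. No gene of either set changed sign, for which non-overlapping groups leave little room. Leaving out siCTRL replicate 2 lost 88 of the lower and 50 of the higher genes, and leaving out siLSM14A replicate 2 lost 95 and 44. The total at an unadjusted p under 0.05, 242 with all libraries, was 490 without siLSM14A replicate 1 and 479 without siCTRL replicate 3, the libraries that stood apart by GC content. It was 131 without siCTRL replicate 2 and 151 without siLSM14A replicate 2. All 10 lower named genes kept an unadjusted p under 0.05 in each omission. The named genes had been chosen for small p and non-overlapping groups in these libraries, so this is no independent check. Of the higher named genes, IRGQ, CCND1, VGF, TMEM81, TPM1 and UTS2 kept it in each omission, and HTR2B, RASD1 and CXCL8 in 4 of 6.

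Without siCTRL replicate 3, the culture whose omission called most genes at an adjusted p under 0.05 (3, with TAP1 added), the higher genes of smallest p were MAP1B, NFIB, TPR, ZNF443 and TMTC3. Their values show the part of that culture. TPR, a nucleoporin of the nuclear basket, was at 155, 144 and 295 CPM in siCTRL replicates 1 to 3 and 357, 311 and 184 CPM in siLSM14A, so siCTRL replicate 3 and siLSM14A replicate 3 each lay among the other group. The log2 change of TPR was 0.52 (standard error 0.31) with all libraries and 0.32 to 0.92 with 1 left out. TMTC3 was at 6.42, 6.77 and 14.02 CPM against 17.2, 14.3 and 8.72 CPM. MAP1B, a microtubule-associated protein, was at 33.7, 33.8 and 54.8 CPM against 68.9, 57.7 and 52.3 CPM. ZNF443 was higher by 1.79 (standard error 0.51) on a mean of 12.8 counts per library.

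Some genes had an extreme level in 1 culture. Beside the mean of the other 2 cultures of its group, siCTRL replicate 3 was furthest above for RESF1, a silencing factor of endogenous retroviruses, at 8.09 CPM beside 1.09 and 2.27 CPM, and furthest below for DUSP8, a phosphatase of MAP kinases, at 0.566 CPM beside 1.48 and 1.40 CPM. RESF1 has an exon GC content of 39.3% and DUSP8 of 66.3%, on either side of the median of 47.8%. siLSM14A replicate 1 was furthest above for LRRCC1, a centriole protein with 36.9% GC, at 2.78 CPM beside 0.450 and 0.681 CPM. siLSM14A replicate 2 was furthest above for the mitochondrially encoded MT-ND3, at 127 CPM beside 41.9 and 41.3 CPM. siCTRL replicate 1 was furthest above for DEPP1, at 7.80 CPM beside 1.86 and 1.93 CPM, and DEPP1 was also highest of its group in siLSM14A replicate 1, at 7.05 CPM beside 2.98 and 2.85 CPM. The matricellular genes CCN1 and CCN2 had the same outline. CCN1 was at 148 CPM in siCTRL replicate 1 and 180 CPM in siLSM14A replicate 1, beside 38.7 to 61.0 CPM in the other 4 libraries. CCN2 was at 66.4 and 73.2 CPM in these and 21.4 to 43.3 CPM in the others. In total RNA the high siLSM14A library carried another number, with CCN1 at 74.1, 74.3 and 232 CPM in siLSM14A replicates 1 to 3, and at 197, 48.9 and 46.6 CPM in siCTRL replicates 1 to 3.

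P-body partners of LSM14A were not called in polysomal RNA. Of 19 tested genes of repression and decapping, 0 were lower or higher at an unadjusted p under 0.05 by edgeR, and 0 at an adjusted p. Over all genes 1.36% were lower and 0.6% higher at the unadjusted threshold, so a list this short may well hold 0. In total RNA the member EIF4E2 was lower, at -0.33 (standard error 0.056, adjusted p by edgeR 0.0328), beside -0.24 (0.16) in polysomal RNA. Other members passed only the unadjusted threshold in total RNA. DCP2 (0.26, standard error 0.057), CPEB4 (0.38, 0.086), DDX6, TNRC6A and PNRC2 were higher there and LSM14B (-0.18, 0.053) was lower. Over all genes 5.62% were higher and 5.13% lower in total RNA by that measure. The median polysomal log2 change of the 19 genes was -0.08, and it was 0.08 without siCTRL replicate 3 and -0.19 without siLSM14A replicate 1. DDX6 was at 57.1, 49.0 and 77.4 CPM in siCTRL replicates 1 to 3 and 74.4, 34.3 and 56.0 CPM in siLSM14A, overlapping groups with a log2 change of -0.15 (standard error 0.27). EIF4ENIF1, the 4E-T protein, was at 28.5 to 30.99 CPM against 26.4 to 29.9 CPM, a log2 change of -0.08 (standard error 0.16). The paralogue LSM14B was at 37.6 to 52.7 CPM against 33.98 to 41.1 CPM, a log2 change of -0.28 (standard error 0.18). The list ran from EDC4, a scaffold of decapping (-0.42, standard error 0.25), to the decapping enzyme DCP2 (0.36, standard error 0.21). The 8 genes of the LSM1 to LSM8 ring had a median of 0.03 and the 16 deadenylation genes a median of -0.0078, each with 0 genes at an unadjusted p under 0.05.

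Genes of the translation apparatus and of mitochondria varied between cultures of one group. The 77 cytosolic ribosomal protein genes had a median log2 change of 0.20 and 0 genes at an unadjusted p under 0.05. Their median deviation was 0.40 in siLSM14A replicate 2 and -0.21 to -0.02 in the other 5 libraries, and the median log2 change was 0.03 to 0.28 over the omissions. The 62 nuclear-encoded respiratory chain genes had the same outline, at 0.34 in siLSM14A replicate 2 and -0.12 to -0.01 elsewhere. The 13 mitochondrially encoded mRNAs, which mitochondrial ribosomes translate, took 0.693% to 1.47% of the counts. Their median deviation was -0.57 in siCTRL replicate 1 and -0.61 in siLSM14A replicate 3, and 0.35 to 0.54 in siCTRL replicates 2 and 3 and siLSM14A replicate 2, with a median log2 change between groups of -0.08. Beside 1.36% of all genes lower and 0.6% higher at an unadjusted p under 0.05, of 43 translation factors 1 was lower, EIF3F, and the median was 0.06. Of 33 proteasome genes 1 was higher, PSMA1 (0.46, standard error 0.20), and the median was 0.13.

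**Figure D5:**
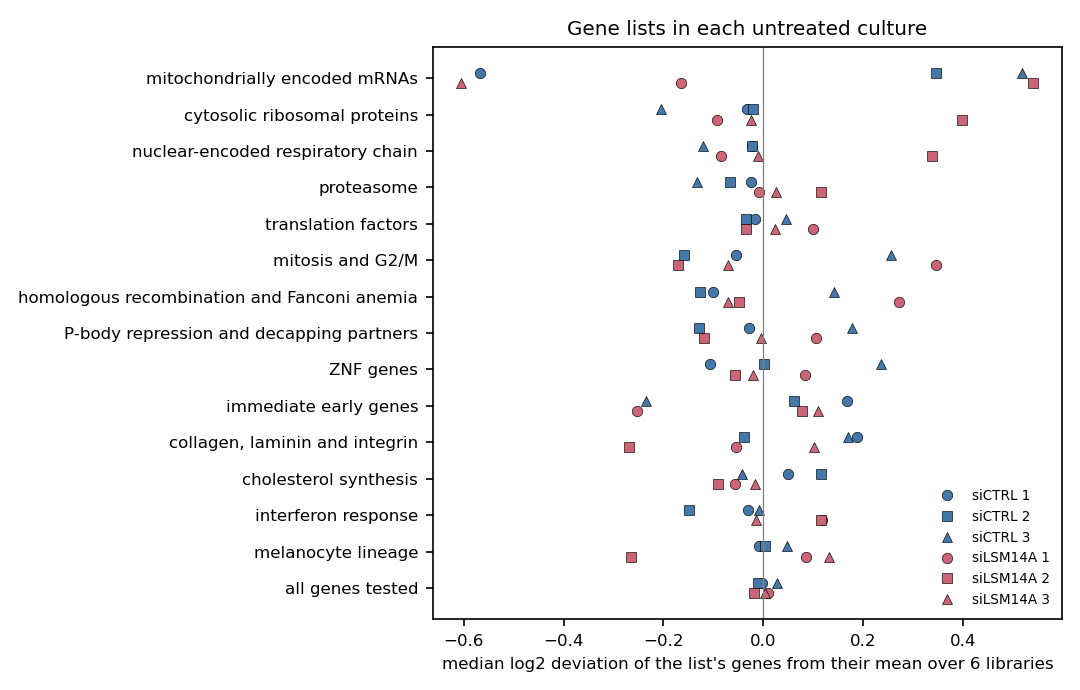
For each gene list (rows), the median log2 deviation of its genes from their mean over the 6 libraries (x axis), 1 point per culture. Blue points are siCTRL and red points siLSM14A. siLSM14A 2 lies alone at 0.40 for ribosomal proteins, and mitochondrially encoded mRNAs spread from -0.61 to 0.54 within siLSM14A.

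The mitotic genes were high in the libraries with the GC deviation. The 38 mitotic and G2/M genes deviated by 0.26 in siCTRL replicate 3 and 0.35 in siLSM14A replicate 1, and by -0.17 to -0.05 in the other 4. Their median log2 change was 0.08, from -0.11 to 0.22 over the omissions, and their median exon GC content was 42.6%. The proliferation marker MKI67 was at 128, 108 and 205 CPM in siCTRL replicates 1 to 3 and 267, 228 and 115 CPM in siLSM14A. The 29 genes of homologous recombination and the Fanconi anemia pathway had a median of 0.06. The 45 replication genes, which deviated by 0.02 in siCTRL replicate 3 and 0.09 in siLSM14A replicate 1, had one of -0.0022. The 12 genes of non-homologous end joining had one of 0.02. Each list held 0 genes at an unadjusted p under 0.05, beside 1.36% of all genes lower and 0.6% higher. The part of the GC deviation in these values was not tested beyond the correction, which gave medians of 0.10, 0.05, 0.0049 and 0.03 in the order given.

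The DNA ligase gene LIG4 and the helicase gene RTEL1 are the transcripts the study followed, with HPRT1 as its control. The study reported that both moved toward heavy polysomes with HU in LSM14A-depleted cells, by sequencing and RT-qPCR. It also reported more RTEL1 protein under HU after LSM14A knockdown, by western blot. Those comparisons are not the one made here, which is of polysomal RNA in untreated cells. LIG4 was at 4.56, 7.81 and 17.6 CPM in siCTRL replicates 1 to 3 and 15.3, 6.26 and 5.18 CPM in siLSM14A. The groups overlapped, with the highest values in siCTRL replicate 3 and siLSM14A replicate 1, and the log2 change of -0.16 (standard error 0.50) ran from -0.80 to 0.53 over the omissions. RTEL1 was at 0.463, 0.689 and 0.599 CPM against 0.265, 0.208 and 0.576 CPM, a log2 change of -0.70 (standard error 0.46) at a level where counting error is large. HPRT1, a purine salvage enzyme, was at 38.5, 38.5 and 41.9 CPM against 48.1, 42.8 and 47.6 CPM, a log2 change of 0.22 (standard error 0.15). None of the 3 had an unadjusted p under 0.05 in untreated cells. Between the siRNAs under HU, the polysomal log2 change was 0.44 (standard error 0.20) for LIG4 and 1.18 (0.42) for RTEL1. The unadjusted p by edgeR was 0.0508 for LIG4 and 0.0156 for RTEL1, and the adjusted p was 0.739 for each. RTEL1 was low there too, at 0.33 to 0.52 CPM in siCTRL and 0.64 to 1.61 CPM in siLSM14A. The siRNA effect in untreated cells minus that under HU was -0.61 (standard error 0.62) for LIG4 and -1.90 (0.64) for RTEL1. Each of these differences had an adjusted p by edgeR of 0.954.

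Stress, interferon and signalling lists had few members past an unadjusted p of 0.05, which 1.36% of all genes passed on the lower and 0.6% on the higher side. Of 37 interferon response genes, 1 was lower, TAP1, and 0 higher, and the median was 0.11. TAP2, the partner subunit of the TAP transporter, was at the opposite end with 0.62 (standard error 0.28). The 27 genes of the integrated stress and unfolded protein responses had 0 on either side and a median of -0.02, and so had the 27 immediate early genes, with a median of 0.01. Of 24 heat shock genes 1 was higher, the mitochondrial cochaperonin HSPE1 (0.46, standard error 0.18). Of 17 ERK output genes 1 was higher, CCND1, and 1 lower, the feedback inhibitor SPRY1 (-0.40, standard error 0.18). Of 23 cholesterol synthesis genes 1 was lower, the demethylase CYP51A1, at 7.02, 8.30 and 13.4 CPM against 5.22, 1.83 and 6.07 CPM (-1.12, standard error 0.40). The median of this list was -0.09, from -0.14 to -0.06 over the omissions. After the GC correction 6 of the 23 were lower and 0 higher, beside 348 lower and 214 higher of all 12342 genes. The reason for this shift was not tested. Of 39 collagen, laminin and integrin genes 2 were lower, COL4A5 (-0.65, standard error 0.22) and ITGA9 (-0.50, 0.17), and 0 higher. The word occurs in the 3′ UTR of ITGA9. Of 366 tested zinc finger genes named ZNF, 4 were lower and 2 higher, shares near those of all genes, ZNF443 being the one with the largest change, with a median of -0.05.

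The cells carried melanocyte markers in both groups, at very different levels from marker to marker. SOX10 was at 718 to 1020 CPM in siCTRL and 762 to 1000 CPM in siLSM14A, and PMEL at 1100 to 1260 CPM and 1220 to 1330 CPM. Of 17 melanocyte genes, 0 were higher or lower at an unadjusted p under 0.05, beside 0.6% and 1.36% of all genes. Others were low, with MLANA at 3.58 to 5.56 CPM, TYRP1 at 1.51 to 4.73 CPM and MC1R at 0.204 to 1.11 CPM. Of the dedifferentiation markers, VIM was at 3040 to 4350 CPM, FN1 at 1420 to 2110 CPM and AXL at 183 to 278 CPM. EGFR was at 0 to 0.076 CPM with 0 counts in 2 libraries. The 15 dedifferentiation markers summed to 5310 to 6650 CPM in siCTRL and 6220 to 7400 CPM in siLSM14A. The 17 melanocyte markers summed to 3770 to 4030 CPM and 3630 to 4020 CPM. The summed levels of markers of other cell types overlapped between the groups. The summed level was 111 to 138 CPM in siCTRL and 96.3 to 137 CPM in siLSM14A for 7 endothelial markers, most of it EGFL7 at 89 to 133 CPM, with CLDN5 and ERG at 0 counts in all 6 libraries. It was 34.3 to 58.2 CPM and 30.9 to 56.9 CPM for 8 fibroblast markers, with LUM at 15.3 to 33.1 CPM and FAP at 7.5 to 17.4 CPM. It was 23 to 32.8 CPM and 27.5 to 38.4 CPM for 8 keratinocyte markers, most of it KRT10 at 21.6 to 34.9 CPM, with KRT5 and DSG3 at 0 counts in all 6. The keratin gene KRT14, here in TMM-normalised CPM, was at 2.89, 1.46 and 1.83 in siCTRL replicates 1 to 3 and 3.63, 3.39 and 3.46 in siLSM14A. Its log2 change was 0.76 (standard error 0.29), and it was the only marker of another cell type at an unadjusted p under 0.05. For 8 leukocyte markers the summed level was 2.78 to 4.80 CPM and 2.78 to 3.92 CPM, with CD3E at 0 counts in all 6.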

How the data were processed

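RNA of A2058 cells was sequenced by the authors as stranded poly(A) libraries with paired reads. Alignment by the authors was to hg19 with STAR 2.6.1a after adapter trimming, per the paper's methods and the labels, with Gencode as the annotation. The deposited values are whole-number counts per gene without normalization, 20345 gene IDs, of which 19086 were protein-coding, 551 of another type and 708 not in the annotation used here. Groups and replicate numbers came from the sample titles. Nothing in the labels says what a replicate number shares or how cultures were kept apart, so p-values measure the spread between these samples, which may be technical. Total and polysomal libraries were normalised separately, so their CPM levels are not compared.

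Here, counts were tested in R 4.3.3 by the quasi-likelihood F-test of edgeR 4.0.16 with TMM factors. The filter was filterByExpr, with 10 as the least count and 15 as the least total, and Benjamini-Hochberg adjustment ran over all genes tested. CPM are TMM-normalised, except those in the paragraph on cell type markers, which apart from KRT14 are per library total. Translation efficiency was the interaction of fraction and siRNA over the untreated libraries of both fractions, and the HU difference the interaction of siRNA and treatment over the polysomal libraries. Median deviations of lists are on log2 CPM with a prior count of 2. Alternatives were DESeq2 1.42.0, voom with sample quality weights in limma 3.58.1, RLE size factors, other filters, all genes, all polysomal libraries in 1 fit, a replicate block, a culture block, a GC correction (loess of span 0.3 on exon GC content, as offsets) and each culture left out. The scripts were tested on simulated data. No pair of libraries differed by less than sampling noise, with a chi-square per gene of 29.5 to 126 and a correlation of log2 CPM of 0.973 to 0.993. Transcript regions and the 7-base word came from Ensembl canonical transcripts of Gencode on hg19.

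Named genes were LSM14A, genes called, in each direction the 10 of smallest p with non-overlapping groups and a mean count of at least 50, the extremes of each culture, the 5 of smallest p per direction without the culture whose omission called most, LIG4, RTEL1 and HPRT1, the P-body list, called or extreme members of the other lists, and up to 5 genes per direction called in total RNA. GPR153, KREMEN1, BCL7A, BCL7B, CYCS, PROB1, TAP2, ZNF652 and DTWD1 fall outside this rule and were chosen after their values were seen. The comparison, the lists and the word were chosen with earlier results of these data known. Results for some genes and windows that the rule names are not reported here.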

Additional observations from a re-analysis of the deposited data

How the results depend on the processing

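The 2 calls in polysomal RNA of untreated cells became 8 with DESeq2, 10 with sample quality weights, 4 without a filter on low counts, 5 with the GC correction and 7 with all 12 polysomal libraries in one fit, all lower, and the 2 original calls were among them each time. They numbered 2 with RLE size factors, with at least 10 counts in every library and with all genes of the table. With single cultures left out they numbered 2 to 3. BRI3BP passed in the 5 settings that moved the count, TAP1 in these and without siCTRL replicate 3, and PACC1 in all of these 5 but the one without a filter. Of 447 values of 28 named genes under alternatives, 444 kept their direction, and the exceptions were LIG4 with 1 culture left out (-0.80 to 0.53, above 0 at 0.53 without siCTRL replicate 3, 0.048 without siLSM14A replicate 2 and 0.13 without siLSM14A replicate 3).

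Total RNA gave 200 calls with DESeq2 and 119 with the GC correction against 71, and 28 to 80 with a culture left out. Polysomal RNA under HU gave 22 with DESeq2 against 8, and 2 to 8 with a culture left out. Translation efficiency and the difference between NT and HU gave 0 calls under each alternative run, including a block on the culture label for the former, which assumes that a label means 1 culture in both fractions. With 1 culture left out, list medians moved by more than the spread between cultures for P-body genes (-0.185 to 0.0752), interferon genes (0.066 to 0.211), heat shock genes (-0.0593 to 0.215) and all genes tested (-0.0314 to 0.0166). The causes were not tested.

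With the replicate number as a block, polysomal RNA of untreated cells gave 2 calls and 145 genes at an unadjusted p under 0.05, and with block and GC correction 2 calls. Same-numbered cultures did not deviate together, with correlations of -0.46, 0.30 and -0.41 for replicates 1 to 3, and siCTRL replicate 3 correlated best with siLSM14A replicate 1 (0.62), so the numbers were not taken to pair the cultures. The same block gave 45 calls in total RNA and 40 in polysomal RNA under HU (16 higher, 24 lower, with 8 of the 10 lower named genes among the calls). Same-numbered libraries correlated at -0.29, 0.28 and -0.23 in total RNA and at 0.052, 0.36 and 0.48 under HU, so under HU replicates 2 and 3 deviated together and replicate 1 hardly did. Low counts limit genes such as RTEL1 and ZNF443, and the spread between polysomal replicates limits differences of the size of CCND1.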
